A study of Mus musculus with 12 samples.

Results

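The contrast described here sets CO livers against CC livers: adult sons of control-fed mothers that ate an obesogenic diet after weaning, and sons of the same kind of mother that stayed on the control diet. It holds 6 of the study's 12 libraries, 3 a side, chosen by their labelled maternal and offspring diets, and all 386 listed rows of mature microRNAs (miRNAs). In the whole study both maternal and offspring diets were crossed into 4 groups, and the other two groups, OC and OO, were the sons of obesogenic-fed mothers on the control and on the obesogenic diet.

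All mice were wild type males of the C57BL/6 strain, and their livers were taken at postnatal day 84 (12 weeks) after a fast. The dams, 35 in the study, were C57BL/6J. CC and CO mothers both ate the chow RM1, with 7% simple carbohydrates and 3% lipids by weight, through pregnancy and lactation. Litters were set to 6 pups on postnatal day 3. At weaning on day 21 the CC sons went on to RM1, and the CO sons to a diet with 10% simple carbohydrates and 20% lipids together with condensed milk that was sweetened and held 8% protein, 8% lipids and 55% simple carbohydrates. The CO diet therefore differed from RM1 in fat, sugar and the milk at the same time, and these cannot be told apart. Neither dams nor litters are named in the labels, so the p-values below measure the spread between these libraries and sons of 1 litter may be among them. The sample titles of CC end in the letter A and those of CO in C or D, the labels give no meaning for it, and whatever it stands for cannot be told apart from the diet.

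A miRNA is a short RNA cut from a hairpin transcript. Either strand of the hairpin can be kept: the product from its 5′ side is called the 5p arm and that from its 3′ side the 3p arm, and the rarer of the pair is often called the passenger arm. Loaded into an Argonaute protein, the miRNA pairs with messenger RNAs mainly through its seed, bases 2 to 8 from its 5′ end, and lowers their translation or stability, so that miRNAs with the same seed share many targets. In liver, miR-122 is the best known hepatocyte miRNA, miR-33 acts on cholesterol export, and the cluster of miR-183, miR-96 and miR-182 (the miR-183 cluster) is a target of the sterol-sensing transcription factor SREBP2.

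Of the miRNAs on which the comparison turned, those found in the RefSeq table of mature mouse miRNAs (build GRCm38.p6) are written 5′ to 3′, with the seed in capitals. let-7c-1-3p and miR-31-5p passed the test, let-7c-5p is the other arm of the same let-7c hairpin, and let-7a-1-3p is another let-7 passenger arm. The 3 after miR-31-5p are the miR-183 cluster. The last 5 are members of groups described further on, shown for the seeds they share or, for miR-511-3p, for its macrophage host gene.
let-7c-1-3p: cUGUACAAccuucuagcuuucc
let-7c-5p: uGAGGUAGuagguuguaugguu
let-7a-1-3p: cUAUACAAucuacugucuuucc
miR-31-5p: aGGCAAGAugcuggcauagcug
miR-183-5p: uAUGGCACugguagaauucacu
miR-96-5p: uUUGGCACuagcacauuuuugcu
miR-182-5p: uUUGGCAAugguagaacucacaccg
miR-511-3p: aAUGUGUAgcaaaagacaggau
miR-26a-5p: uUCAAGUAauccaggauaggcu
miR-26b-5p: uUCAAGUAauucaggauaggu
miR-30a-3p: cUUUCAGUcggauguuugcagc
miR-30e-3p: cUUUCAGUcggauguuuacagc
The seeds of let-7c-1-3p, miR-31-5p, miR-183-5p, miR-96-5p and miR-182-5p were each held by no other measured row with a sequence in that table. The seeds of the miR-183 cluster are alike but not the same. miR-26a-5p and miR-26b-5p share a seed, as do miR-30a-3p and miR-30e-3p. Sequences were found for 322 of the 386 rows. miR-5099, miR-150-5p, miR-511-5p, miR-185-5p, miR-126-5p and miR-378a-3p are given by name.

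The deposited unit was CPM, read counts scaled to a common library total, and depth recovered from its steps was 7.47 to 13.3 M (mega) reads in CC and 5.45 to 15 M reads in CO. The lowest value in these 6 libraries stood for 1 read. A hepatocyte-enriched list of 13 rows summed to between 372621 and 375948 CPM in CC and between 387861 and 425821 CPM in CO. Most of that sum was 1 row, miR-192-5p, with a mean of 235743 CPM in CC and 263431 CPM in CO. By row the list was split, with 6 lower and 7 higher in CO and a median log2 difference of 0.01. CO replicate 3 stood apart. It was the shallowest library, its median deviation from the 12-library mean was -0.20 on the log2 scale against -0.03 to 0.03 in the other 5, and 29.2% of its summed CPM was miR-192-5p, against 22.8% to 25.3%. Many of the results that rest on it are given with and without it.

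3 miRNAs passed in CO against CC, and all 3 fell: miR-5099, let-7c-1-3p and miR-31-5p. They were 0.777% of the 386 rows tested, with a limma fit on log2(CPM + 1) and a Benjamini-Hochberg adjusted p under 0.05. miR-31-5p acts in epithelial and inflammatory signalling in several tissues. let-7c-1-3p is the passenger arm of a let-7 hairpin and does not carry the seed of the main arms. The family's known part in restraining growth and insulin signalling is that of the main arms. Fewer cells of a type and less miRNA per cell cannot be told apart in these bulk liver samples.

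miR-5099 stood at 531, 492 and 606 CPM in CC and at 188, 202 and 264 CPM in CO. The lowest CC library was well above the highest CO library, and each value rested on at least 1436 reads. The log2 change was -1.32 (SE 0.147, 95% interval -1.65 to -1.0, limma adjusted p = 5.98e-04), and the mean level was 59.9% lower. It passed without any 1 of the 12 libraries (log2 change -1.47 to -1.23, limma adjusted p up to 0.0058) and under all 10 other settings (up to 0.0349).

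miR-31-5p stood at 611, 615 and 632 CPM in CC and at 455, 423 and 429 CPM in CO. Each group was tight, with an SD of 11.6 in CC and 17.1 in CO, and the groups did not overlap. It fell by 0.51 on the log2 scale (SE 0.0979, 95% interval -0.72 to -0.29, limma adjusted p = 0.0351), a mean 29.6% lower. Its hairpin is annotated on chr4:88910557-88910662, minus strand (GRCm38.p6), in an exon of the lincRNA AL805899.1. The direction held in all alternatives run and the call did not: it was lost on leaving out any library except OO replicate 3, with a limma adjusted p of up to 0.252, and with TMM factors the log2 change was -0.38 (adjusted p = 0.109).

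let-7c-1-3p stood at 3.31, 2.68 and 2.98 CPM in CC and at 1.45, 1.27 and 1.29 CPM in CO, which is 20 to 44 reads in CC and 7 to 19 reads in CO. The groups did not overlap, at levels among the lowest listed, where it ranked 362 of 386. It fell by 0.77 on the log2 scale (SE 0.149, 95% interval -1.10 to -0.44, limma adjusted p = 0.0351). On the raw CPM scale its mean was 55.3% lower, since a pseudocount of 1 shrinks changes at this level. Its hairpin, Mirlet7c-1, is on chr16:77599657-77599750, plus strand, in an intron of the noncoding gene Mir99ahg. The row of let-7c-5p pools the main arm of that hairpin with the identical sequence from Mirlet7c-2 on chromosome 15. It stood at 4408, 4453 and 4993 CPM in CC and at 3896, 5651 and 5379 CPM in CO (log2 difference 0.09, limma adjusted p = 0.904). How the main arm of Mirlet7c-1 alone differed cannot be read from that row. The call of let-7c-1-3p was lost on leaving out any library except OO replicate 3 (limma adjusted p up to 0.252), in the fit of the 6 libraries alone (0.181), with TMM factors (0.0624) and with limma-voom on recovered reads (0.0543).

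**Figure D1:**
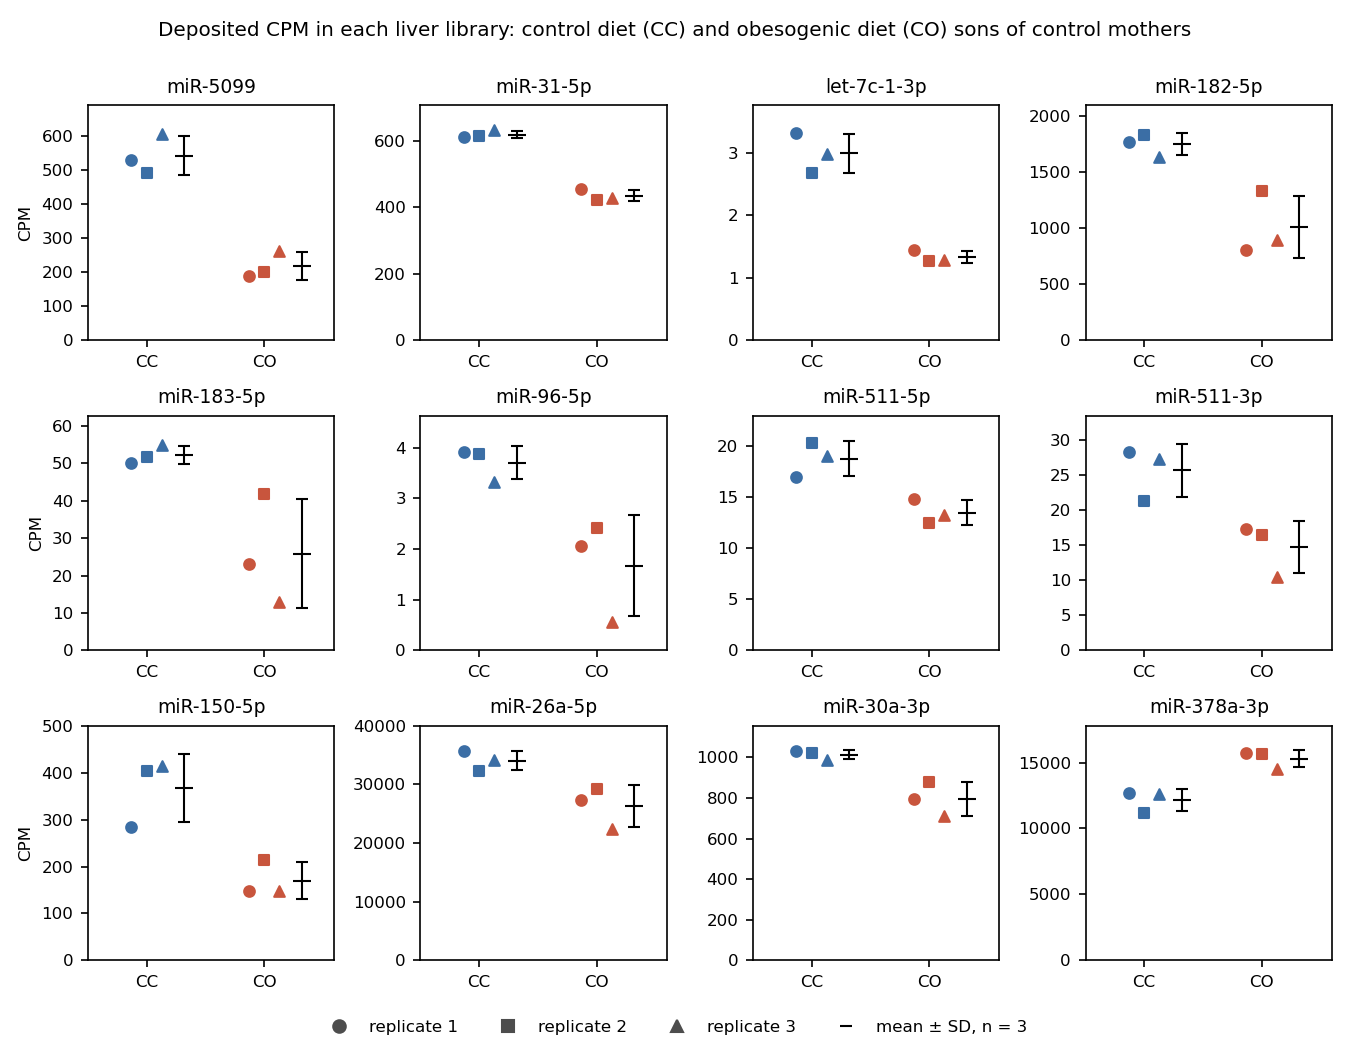
Deposited CPM (vertical axes, from 0) of 12 miRNAs in each CC library (blue) and CO library (red), with 1 marker shape for each replicate number, which pairs nothing, and the group mean ± SD beside them. miR-5099, let-7c-1-3p and miR-31-5p passed the test. In the other 9 panels the groups do not overlap either, with miR-378a-3p higher and the rest lower in CO, but no adjusted p passed. Of all 386 rows, 16.3% had all CO libraries below all CC libraries, and 5.7% had all above.

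Below the threshold, lower values in CO outnumbered higher ones. At an unadjusted limma p under 0.05 there were 51 rows lower in CO (13.2% of the rows tested) and 12 higher (3.11%). In 63 rows (16.3%) all CO libraries lay below all CC libraries, and in 22 (5.7%) all lay above. Over all rows, 231 of 386 were lower, with a median log2 difference of -0.05.

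That imbalance moved with the scaling and with 1 library. Without CO replicate 3 the rows at p under 0.05 were 36 lower and 20 higher, and the median of all rows was 0.01. With median-of-ratios factors the split was 45 and 25 with a median of 0.02, and with TMM factors 32 and 31 with a median of 0.06. From the deposited to the TMM scaling the median moved by 0.11. Relative to the median of all rows, the changes were -1.27 for miR-5099, -0.72 for let-7c-1-3p and -0.45 for miR-31-5p.

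With all libraries, the lower values were not confined to rare miRNAs. Rows at p under 0.05 were 16 lower and 5 higher among the 125 rows under 10 CPM, 14 and 5 among 121 rows at 10 to 100 CPM, 13 and 0 among 88 rows at 100 to 1000 CPM, and 8 and 2 among the 52 rows above. The median log2 differences of these classes, in the same order, were -0.05, -0.10, -0.01 and -0.04. Without CO replicate 3 they were -0.03, 0.03, 0.04 and 0.00. GC content of the 322 sequences and the log2 difference had a Spearman rho of -0.00 across miRNAs, which share libraries and are not independent replicates. Relative to the CC mean, the median deviation of CO replicate 3 was -0.38 in the 107 sequences lowest in GC and -0.19 in the 104 highest. In CO replicates 1 and 2 it lay between -0.06 and 0.08 in all 3 GC classes.

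**Figure D2:**
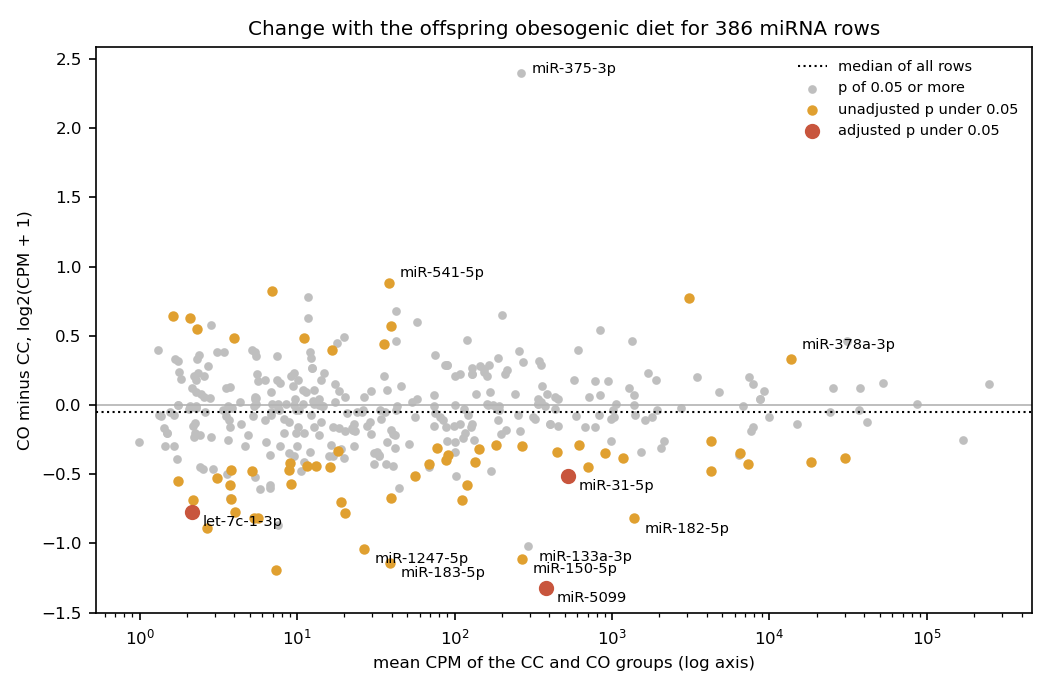
CO minus CC difference on the log2(CPM + 1) scale (vertical axis) against the mean CPM of both groups (horizontal log axis) for 386 rows. Red points passed (adjusted p under 0.05, 3 rows, all lower), orange points had an unadjusted p under 0.05 (60 further rows), and the dotted line is the median of all rows, -0.05. miR-375-3p, highest at 2.40, varied widely between libraries of a group and did not pass (1.26 to 3.69 on leaving out single libraries).

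All 3 members of the miR-183 cluster had lower values in every CO library than in any CC library, as did 16.3% of all rows. None of the 3 passed the adjusted threshold. These miRNAs come from 1 locus that answers to sterol depletion and act on genes of lipid synthesis and of sensory cells. miR-182-5p stood at 1771, 1833 and 1638 CPM in CC and at 809, 1330 and 898 CPM in CO. miR-183-5p stood at 50.2, 51.7 and 54.9 CPM in CC and at 23.0, 41.7 and 12.9 CPM in CO. miR-96-5p stood at 3.91, 3.88 and 3.32 CPM in CC and at 2.06, 2.41 and 0.551 CPM in CO, the last of these from 3 reads.

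CO replicate 2 was the CO library nearest to CC in all 3 members. The log2 differences were -1.14 for miR-183-5p (SE 0.349, limma adjusted p = 0.166), -0.89 for miR-96-5p (SE 0.322, 0.211) and -0.82 for miR-182-5p (SE 0.217, 0.166). The cluster's summed CPM was 1696 to 1889 in CC and 834 to 1374 in CO. Without CO replicate 2, miR-182-5p (-1.03) and miR-183-5p (-1.55) passed, both with a limma adjusted p of 0.0419, while without CO replicate 3 miR-183-5p was at -0.73 (limma adjusted p = 0.305), miR-96-5p at -0.54 (0.428) and miR-182-5p at -0.75 (0.246). The hairpins lie within a few kilobases on the minus strand of chromosome 6, at chr6:30165918-30165992 for miR-182, chr6:30169446-30169551 for miR-96 and chr6:30169668-30169737 for miR-183, outside other annotated genes.

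The wider list for cholesterol and fatty acid metabolism had 22 measured rows, of which none passed, 14 were lower and 8 higher, with a median of -0.07 against -0.05 over all rows. At an unadjusted p under 0.05 there were 5 lower and 2 higher, against 13.2% and 3.11% of all rows, and without CO replicate 3 this turned to 3 lower and 5 higher. The lower ones were the miR-183 cluster, miR-30c-5p, which targets the lipoprotein assembly protein MTTP, and miR-335-5p, hosted by the imprinted gene Mest. On leaving out CO replicate 3 the log2 difference went from -0.43 to -0.19 for miR-30c-5p and from -0.40 to -0.24 for miR-335-5p. The higher ones were miR-378a-3p and miR-185-5p. With TMM factors 10 rows of the list were lower and 12 higher, as without CO replicate 3.

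miR-378a-3p comes from an intron of Ppargc1b, which encodes a coactivator of oxidative metabolism, and was the most abundant row with an unadjusted p under 0.05 on the higher side. It stood at 12674, 11200 and 12618 CPM in CC and at 15701, 15643 and 14534 CPM in CO. Every CO library was above every CC library, as in 5.7% of all rows, and the mean was 25.7% higher. The log2 difference was 0.33 (SE 0.103, limma adjusted p = 0.166) and 0.27 to 0.37 on leaving out single libraries. All 5 rows of the miR-378 family were on the higher side, from 0.01 to 0.33, also with median-of-ratios and TMM factors, while 1 of 5 was lower without CO replicate 1 and 2 of 5 without CO replicate 2.

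miR-185-5p, reported to act on cholesterol uptake and synthesis genes, stood at 34.0, 33.2 and 28.1 CPM in CC and at 44.3, 57.3 and 42.2 CPM in CO (log2 difference 0.57, limma adjusted p = 0.211). miR-33-5p, from an intron of Srebf2, stood at 13.8, 14.3 and 12.3 CPM in CC and at 11.7, 12.9 and 7.34 CPM in CO. Its groups overlapped, and its log2 difference of -0.34 (limma adjusted p = 0.514) was -0.12 without CO replicate 3. miR-122-5p stood at 25255, 25112 and 23582 CPM in CC and at 20930, 22481 and 28851 CPM in CO. CO replicate 3 was its highest library and the other CO libraries were below all of CC. Its log2 difference was -0.05 (95% interval -0.30 to 0.20), -0.18 without CO replicate 3 and 0.08 with TMM factors.

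Of the 18 measured rows on the list for insulin signalling and glucose metabolism none passed, and 6 were lower and 0 higher at an unadjusted p under 0.05, against 13.2% and 3.11% of all rows. Without CO replicate 3 only 2 of the 18 were lower at that p, and the median was -0.01. The 6 were miR-26a-5p and miR-26b-5p, which act on insulin sensitivity and glucose output genes, miR-29a-3p and miR-29c-3p, which act on insulin signalling and on collagen genes, miR-126-3p and miR-338-3p. miR-338-3p had a log2 difference of -0.51, or -0.29 without CO replicate 3. With all libraries the list's median was -0.09, against -0.05 over all rows, and 0.04 with TMM factors. miR-26a-5p stood at 35697, 32363 and 34125 CPM in CC and at 27401, 29214 and 22383 CPM in CO. All CO libraries were below all CC libraries, as in 16.3% of all rows, with a log2 difference of -0.38 (SE 0.114, limma adjusted p = 0.166), or -0.27 without CO replicate 3. miR-26b-5p, with the same seed, had a log2 difference of -0.35 (SE 0.125, limma adjusted p = 0.211).

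The miR-29 rows leaned on CO replicate 3. miR-29a-3p stood at 5182, 4552 and 4822 CPM in CC and at 4118, 4313 and 2366 CPM in CO, and its log2 difference of -0.48 (limma adjusted p = 0.223) was -0.20 without that library. miR-29c-3p stood at 854, 759 and 810 CPM in CC and at 709, 719 and 401 CPM in CO, and its difference of -0.45 became -0.18. The groups did not overlap in either, with all CO below all CC, as in 16.3% of all rows. In both, CO replicates 1 and 2 were nearer to the lowest CC library than to CO replicate 3.

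In the miR-30 family both arms were on the lower side, and none of its rows passed. All 6 of the 3p rows were lower, 5 of them at an unadjusted p under 0.05 (3 without CO replicate 3, 2 with TMM factors, against 13.2% of all rows), with a median of -0.36, and miR-30c-2-3p alone turned higher with median-of-ratios or TMM factors. All 5 of the 5p rows were lower, 1 of them at p under 0.05, with a median of -0.19, and 2 turned higher with TMM factors. miR-30a-3p stood at 1029, 1023 and 989 CPM in CC and at 797, 878 and 712 CPM in CO (log2 difference -0.35, SE 0.104, limma adjusted p = 0.166). miR-30e-3p, with the same seed, stood at 517, 507 and 478 CPM in CC and at 409, 434 and 348 CPM in CO (-0.34, limma adjusted p = 0.211). miR-30c-1-3p had a log2 difference of -0.67 (SE 0.193, limma adjusted p = 0.166). Summed over the family, the 3p arms were at 1849 to 1910 CPM in CC and 1383 to 1615 in CO, and the medians without CO replicate 3 were -0.26 for the 3p and -0.13 for the 5p arms. The ratio of 5p to 3p within a library, tested for miR-30a, miR-30b, miR-30d and miR-30e, did not pass for any of them (log2 difference 0.10 to 0.27, limma adjusted p of 0.419 to 0.696).

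In the let-7 family the main arms, which carry the shared seed, were higher in CO in 8 of 9 rows with a median of 0.15, and none had a p under 0.05. let-7f-5p, the most abundant, stood at 17633, 29729 and 31262 CPM in CC and at 29695, 30694 and 46784 CPM in CO (log2 difference 0.46, limma adjusted p = 0.314), with 0.25 without CO replicate 3 and 0.20 without CC replicate 1. Its extremes were single libraries, CC replicate 1 low and CO replicate 3 high, and without CO replicate 3 the median of the main arms was 0.04.

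Passenger arms of let-7 were lower in CO in 8 of 10 rows with a median of -0.23, -0.16 without CO replicate 3, and in 7 of 10 with TMM factors. Of these, let-7c-1-3p passed. The row shared by let-7a-1-3p and let-7c-2-3p stood at 159 ± 7.36 CPM in CC (SD, n = 3) and at 132, 131 and 117 CPM in CO (log2 difference -0.32, SE 0.104, limma adjusted p = 0.185). let-7b-3p stood at 116, 127 and 127 CPM in CC and at 107, 95.3 and 111 CPM in CO (-0.24, limma adjusted p = 0.514). In both, every CO library was below every CC library, as in 16.3% of all rows. The 5 let-7 hairpins with a tested ratio of 5p to 3p had log2 differences of 0.17 to 0.31, none of which passed (limma adjusted p of 0.464 to 0.691). The passenger arms summed to 900 to 946 CPM in CC and to 744 to 855 CPM in CO.

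**Figure D3:**
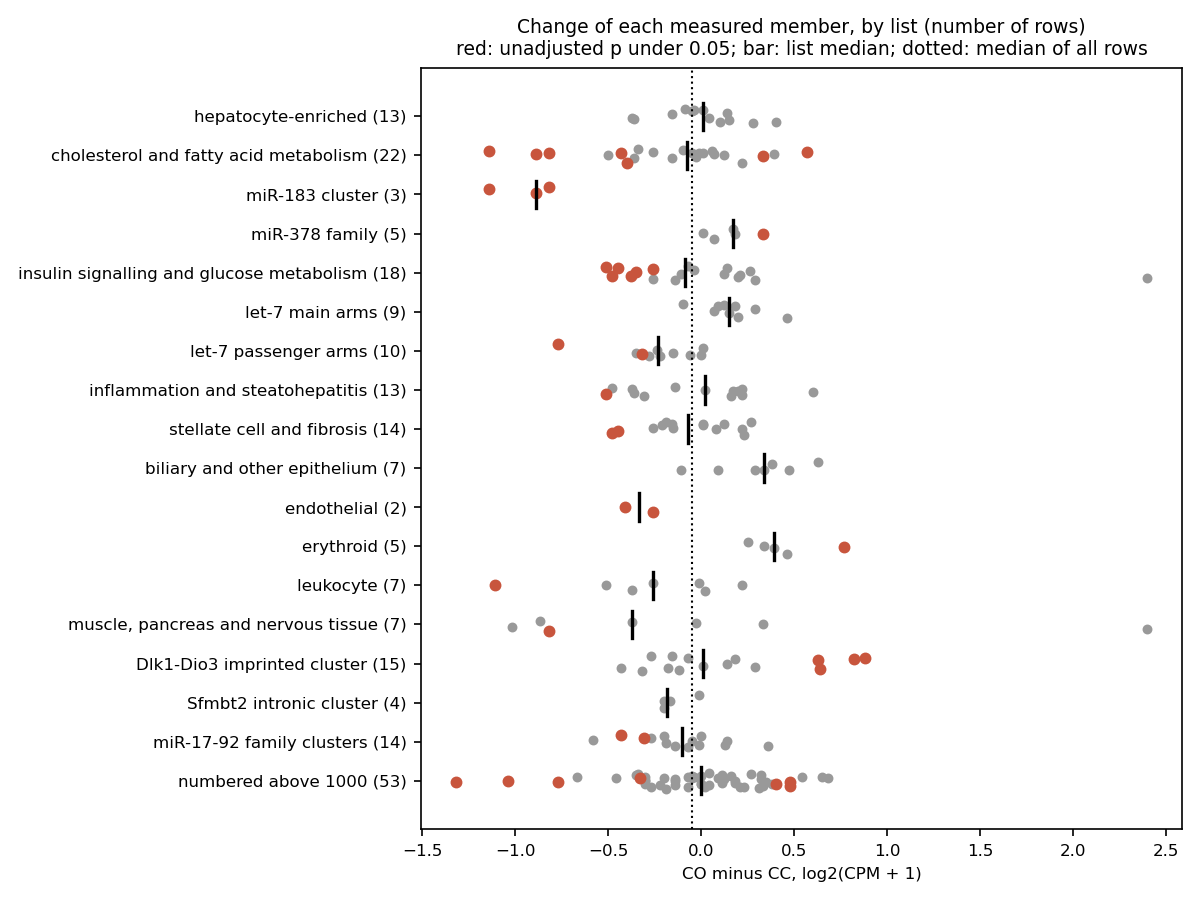
CO minus CC difference on the log2(CPM + 1) scale for each measured member of 18 groups (number of rows in brackets). Red points had an unadjusted p under 0.05, black bars are group medians and the dotted line is the median of all 386 rows, -0.05. The miR-183 cluster lies lowest, with a median of -0.89, and the erythroid list highest, at 0.39.

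Among miRNAs of other liver cell types, none of the marker lists had a member that passed except the list for inflammation and steatohepatitis, to which miR-31-5p belongs. Of that list's 13 rows 6 were lower and 7 higher, with a median of 0.02, and no other member had a p under 0.05. Both arms of miR-511, which lies in an intron of the macrophage mannose receptor gene Mrc1 (chr2:14261003-14261081, plus strand), were lower in each CO library than in any CC library. The same held for 16.3% of all rows. miR-511-3p stood at 28.4, 21.3 and 27.4 CPM in CC and at 17.3, 16.5 and 10.5 CPM in CO (log2 difference -0.78, SE 0.221, limma adjusted p = 0.166). miR-511-5p stood at 16.9, 20.3 and 19.0 CPM in CC and at 14.8, 12.4 and 13.2 CPM in CO (-0.45, SE 0.128, limma adjusted p = 0.166). Without CO replicate 3 the differences were -0.57 and -0.44.

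miR-150-5p, a miRNA of mature lymphocytes, stood at 284, 404 and 414 CPM in CC and at 148, 215 and 147 CPM in CO. All CO libraries were below all CC libraries, as in 16.3% of all rows, with a log2 difference of -1.11 (SE 0.342, limma adjusted p = 0.166) and -1.02 without CO replicate 3. The other 6 rows of the leukocyte list did not follow it as a group: none had a p under 0.05, and they lay between -0.51 and 0.22. miR-223-3p, abundant in neutrophils and monocytes, stood at 117, 123 and 108 CPM in CC and at 149, 190 and 86.3 CPM in CO. miR-142-5p, found in all blood cell lineages, stood at 2003, 2538 and 2396 CPM in CC and at 2179, 2196 and 1472 CPM in CO. Summed, the list was at 2834 to 3522 CPM in CC and 2273 to 3033 in CO, so its ranges overlapped.

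Both arms of the endothelial miR-126 were lower in every CO library than in any CC library, as were 16.3% of all rows. miR-126-5p stood at 22227, 19963 and 20701 CPM in CC and at 16971, 18755 and 12324 CPM in CO (log2 difference -0.41, SE 0.133, limma adjusted p = 0.185). miR-126-3p had a log2 difference of -0.26 (SE 0.113, limma adjusted p = 0.268). The lowest library was again CO replicate 3, and without it the values were -0.23 and -0.15.

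Erythroid miRNAs were on the higher side in all 5 rows, with a median of 0.39 and no call. Their summed CPM was 2870 to 4266 in CC and 4262 to 9019 in CO, the top value being CO replicate 1. miR-451a stood at 1328, 1062 and 828 CPM in CC and at 2563, 1446 and 826 CPM in CO. The row of miR-3107-5p and miR-486-5p, which cannot be told apart, stood at 2459, 2454 and 1718 CPM in CC and at 5594, 2374 and 3884 CPM in CO (log2 difference 0.77, limma adjusted p = 0.255). Without CO replicate 1 the list's median was 0.05, with 3 rows higher and 2 lower. Whether blood left in the tissue had a part in any other difference was not tested.

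Rows typical of the bile duct and other epithelia were higher in 6 of 7 rows with a median of 0.34, none at p under 0.05, and their sums overlapped (2014 to 2360 CPM in CC, 1927 to 2581 in CO). CO replicate 2 was the highest CO library for miR-200b-3p, miR-141-3p and miR-429-3p, and without it the list's median was 0.09. The stellate cell and fibrosis list split evenly, 7 lower and 7 higher, with a median of -0.07. Its most abundant row, miR-143-3p, stood at 46645, 31520 and 30260 CPM in CC and at 35963, 35218 and 44972 CPM in CO.

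Some miRNAs of muscle and pancreas varied widely between libraries of a group. miR-375-3p, an islet and neuroendocrine miRNA, stood at 17.7, 197 and 18.0 CPM in CC and at 35.8, 1061 and 266 CPM in CO. miR-133a-3p, a muscle miRNA, stood at 743, 70.8 and 419 CPM in CC and at 88.8, 352 and 84.4 CPM in CO. These spreads within a group were wider than any difference between groups that passed. The 95% interval of miR-375-3p ran from -1.18 to 5.98. Their part in the other results was not tested. miR-184-3p, also on the list of muscle, pancreas and nervous tissue, had a log2 difference of -0.82 (limma adjusted p = 0.214).

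The Dlk1-Dio3 region is an imprinted domain of chromosome 12 whose miRNAs are made from the maternal copy. A gap of 114 kb separates its measured rows into a group beside Rtl1, with miR-127 and miR-136, and a group in and near Mirg, with miR-379, miR-541 and miR-410. No row passed, and the split by position was made after the values were seen, so it is a description. All 8 rows of the Mirg group were on the higher side in CO with a median of 0.46, while all 7 rows beside Rtl1 were on the lower side with a median of -0.18. Of all rows, 59.8% were lower in CO. At an unadjusted p under 0.05, 4 of the 8 Mirg rows were higher, against 3.11% of all rows, and 2 of 8 without CO replicate 2, where the median was 0.26.

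miR-541-5p stood at 26.2, 21.7 and 31.2 CPM in CC and at 38.4, 69.3 and 43.5 CPM in CO (log2 difference 0.88, SE 0.264, limma adjusted p = 0.166). miR-409-3p stood at 6.31, 4.15 and 3.54 CPM in CC and at 7.64, 13.9 and 6.24 CPM in CO (0.82, SE 0.293, limma adjusted p = 0.211). miR-379-5p had a log2 difference of 0.64 and miR-134-5p of 0.63, both at levels under 4 CPM. CO replicate 2 was the highest library in all 4 of these rows. Without CO replicate 2 the differences were 0.63 for miR-541-5p and 0.51 for miR-409-3p, and without CO replicate 3 they were 0.96 and 1.03.

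A ratio of the 2 groups within a library does not depend on its scaling. Summed CPM of the Mirg group over that of the Rtl1 group was 0.418, 0.45 and 0.482 in CC and 0.545, 0.913 and 0.721 in CO, without overlap. Both groups were set after these CO and CC values were seen, so the lack of overlap is a description and not a test. Taken alone, the summed CPM of each group overlapped between CC and CO. CO replicate 3 had the lowest sum of the Rtl1 group, which raised its ratio. In sons of obesogenic-fed mothers the ratio was 0.401, 0.563 and 0.432 in OC and 0.611, 0.446 and 0.487 in OO, with overlap. All 7 rows beside Rtl1 were lower in OO than in OC as well, with a median of -0.17. Of the 8 Mirg rows, 6 were lower and 2 higher in OO, with a median of -0.11. Over all rows, 45.9% were lower in OO. The higher side of the Mirg group held for 8 of 8 rows without CO replicate 3 and with either TMM or median-of-ratios factors, and for 7 of 8 without CO replicate 2 or without CO replicate 1. The lower side of the Rtl1 group held for 5 of 7 rows without CO replicate 3 and for 6 of 7 with TMM factors.

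**Figure D4:**
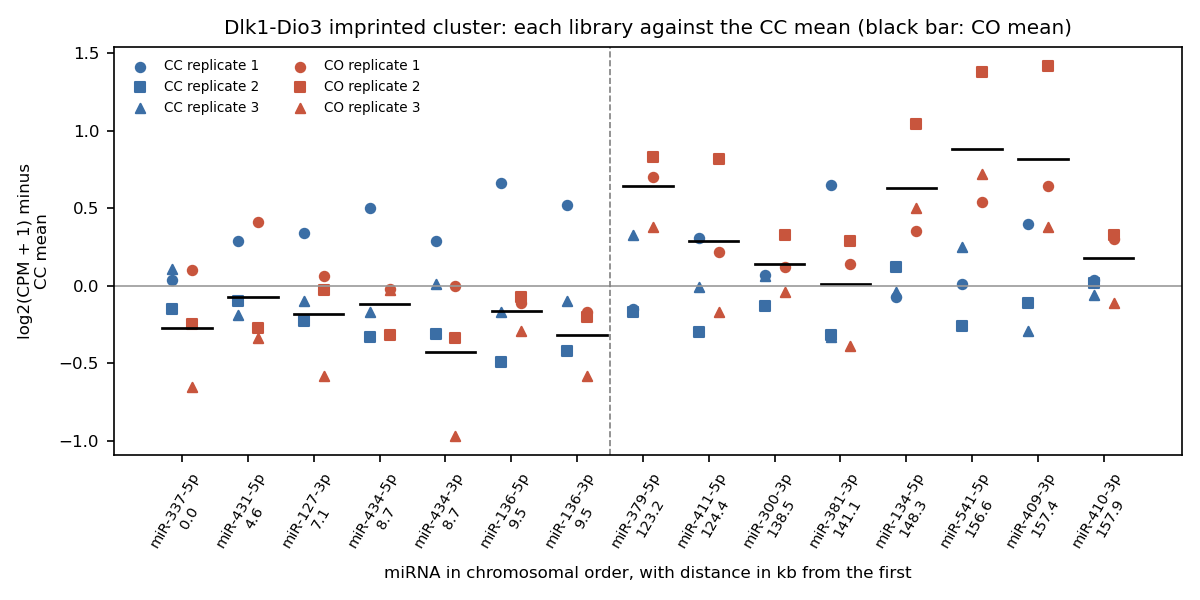
log2(CPM + 1) of each CC (blue) and CO (red) library minus the CC mean (vertical axis) for 15 rows of the Dlk1-Dio3 domain in chromosomal order, with the distance in kb from the first row under each name. Black bars are CO means and the dashed line marks the gap of 114 kb. CO means lie below 0 in the 7 rows to its left and at or above 0 in the 8 rows to its right.

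Other rows came from single loci. miR-1247-5p, in an exon of Dio3os at the far end of the same domain, stood at 50.6, 33.9 and 26.1 CPM in CC and at 17.6, 15.8 and 16.7 CPM in CO (log2 difference -1.04, SE 0.294, limma adjusted p = 0.166). CC was spread and CO tight. All CO libraries were below all CC libraries, as in 16.3% of all rows, and the log2 difference without CO replicate 3 was the same, -1.04. miR-3084-3p stood at 5.94, 5.35 and 4.64 CPM in CC and at 2.67, 3.81 and 1.84 CPM in CO (-0.77, limma adjusted p = 0.166, and 0.0419 without CO replicate 2). Its hairpins overlap annotated snoRNA genes on the same strand, so its reads are uncertain. The cluster of miR-99b, let-7e and miR-125a on chromosome 17 was lower in 6 of 6 rows with a median of -0.33 and -0.44 without CO replicate 3, and in 5 of 6 with TMM factors, and 2 rows had a p under 0.05 (1 with TMM factors). Over all rows, 59.8% were lower, and 13.2% were lower at an unadjusted p under 0.05. miR-17-5p and miR-20a-5p, growth-promoting members of the miR-17-92 cluster with a common seed, had log2 differences of -0.43 and -0.31 (limma adjusted p = 0.211 and 0.255, and -0.28 for miR-17-5p without CO replicate 3) in a list with 10 lower and 4 higher rows, which was 7 and 7 with TMM factors. These 2 were the only ones of the list's 14 rows at an unadjusted p under 0.05, a share near that of all rows.

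The plain ratio of the arms of a hairpin within a library does not depend on its scaling either. The tested log2 ratios had a pseudocount of 1 added to the CPM of each arm. For arms at low CPM they therefore still depend on the scaling, and they can differ from the printed ratios, which have nothing added. In 99 hairpins with both arms listed, 0 ratios of 5p to 3p passed (0%) with the limma adjusted threshold, and 8 had an unadjusted p under 0.05 (8.08%), 3 higher and 5 lower in CO. For miR-185, 5p over 3p was 10.8, 14.6 and 15.9 in CC and 22.3, 19.5 and 28.7 in CO (log2 difference of the ratio 0.70, SE 0.213, limma adjusted p = 0.33). The groups did not overlap, and the difference lay in the 5p arm, at 0.57, with the 3p arm at -0.13. For miR-542 the ratio was 0.219, 0.161 and 0.256 in CC and 0.0937, 0.149 and 0.0769 in CO (-0.64, SE 0.211, limma adjusted p = 0.33). miR-210 (-0.69), miR-330 (0.69), miR-29a (-0.71) and miR-455 (-0.41) followed, with limma adjusted p of 0.33 to 0.39 and no overlap, as in 12.1% of the 99 ratios. Without CO replicate 3 the miR-29a ratio was at -0.33. The 95% interval excluded a log2 difference of 1 in either direction for 87 of the 99 ratios.

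The same contrast of the sons' diets was available after obesogenic-fed mothers, in libraries that shared no animal with CO and CC and only the estimate of spread. The difference between both contrasts passed for 0 of 386 rows (0%) by limma and had an unadjusted p under 0.05 in 15 (3.89%). For miR-5099 the log2 change was -1.32 after control and -0.95 after obesogenic mothers, a difference of -0.38 with a 95% interval of -0.83 to 0.08 (unadjusted p = 0.094, limma). For miR-31-5p the values were -0.51 and -0.35 (interval of the difference -0.46 to 0.15), and for miR-182-5p -0.82 and -1.15 (-0.34 to 1.0). All 3 intervals include 0, which does not show that the changes were alike.

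let-7c-1-3p stood at 2.48, 2.04 and 2.01 CPM in OC and at 1.76, 1.53 and 2.20 CPM in OO. All 6 of these libraries lay below every CC library and above every CO library. The difference between the contrasts was -0.60 (SE 0.211, unadjusted p = 0.0152, limma adjusted p = 0.773). The smallest p of such a difference belonged to miR-335-5p, at 106, 103 and 92.1 CPM in CC, 73.6, 97.0 and 60.2 in CO, 100, 83.7 and 85.2 in OC and 118, 110 and 122 in OO. It was lower with the obesogenic diet after control mothers and higher after obesogenic mothers (difference -0.78, SE 0.234, limma adjusted p = 0.773). miR-330-3p followed with a difference of -0.85 (SE 0.286, limma adjusted p = 0.773).

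Of the 51 rows lower in CO at an unadjusted p under 0.05, 36 were also lower in OO than in OC, with a median of -0.07 there, and in 9 all OO libraries lay below all OC libraries, as in 20 of all 386 rows (5.18%). Over all rows, 45.9% were lower in OO than in OC. Of the 12 rows higher in CO, 8 were also higher in OO, with a median of 0.15. These rows were chosen by CO and CC alone.

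**Figure D5:**
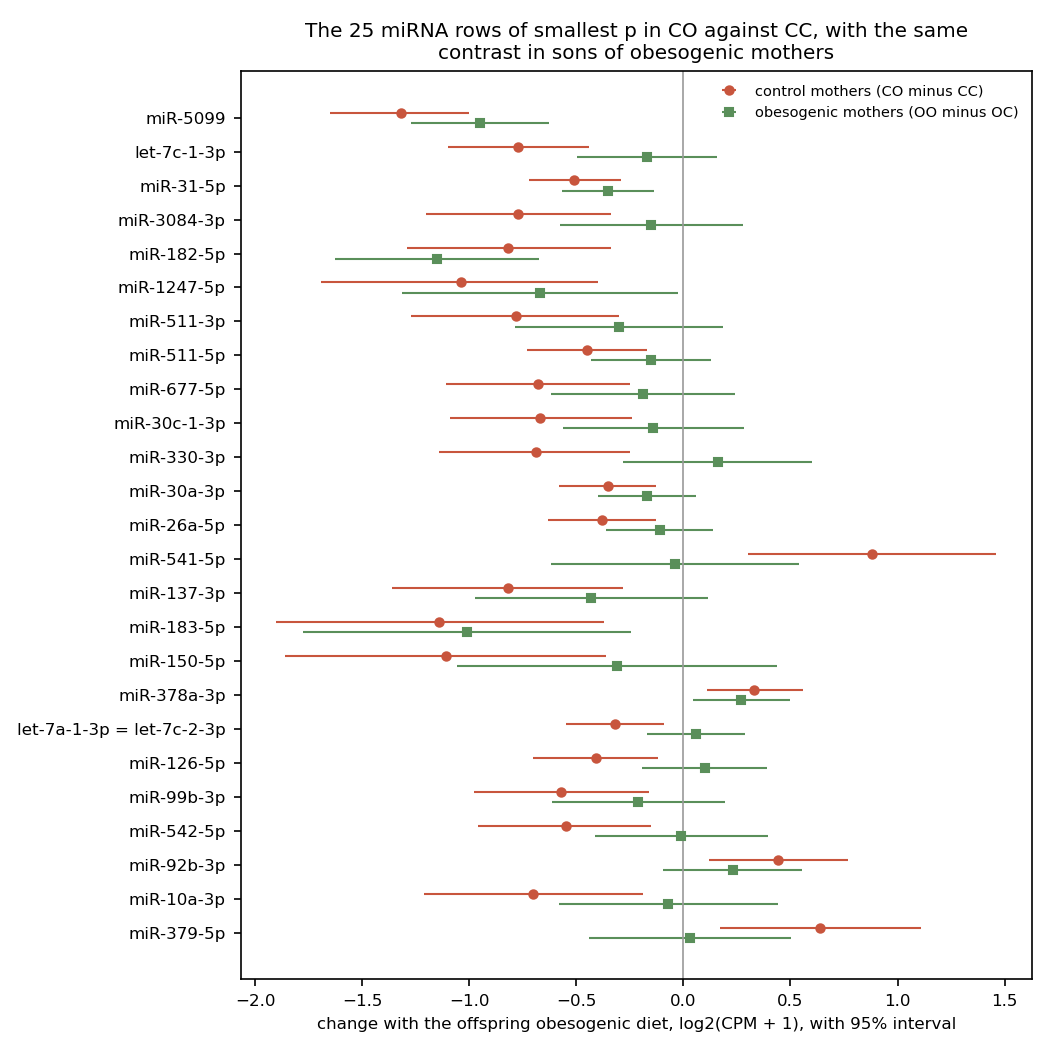
Log2(CPM + 1) difference with the obesogenic offspring diet and its 95% limma interval (horizontal axis) for the 25 rows of smallest p in CO against CC, after control mothers (red, CO minus CC) and after obesogenic mothers (green, OO minus OC). Red points were chosen for their size. Green intervals of miR-5099, miR-31-5p, miR-183-5p, miR-182-5p, miR-1247-5p and miR-378a-3p lie on the same side of 0 as the red ones, and the rest include 0.

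The precision of the contrast was limited by 3 libraries a side, for which an exact permutation test of a single row cannot give a p below 0.1. The median distance from the estimate to either end of its 95% interval was 0.43 on the log2 scale. For 310 of 386 rows the interval excluded a log2 difference of 1 in either direction, and for 160 it excluded a difference of 0.58. For miR-148a-3p, abundant in hepatocytes, at 86807, 85911 and 86181 CPM in CC and 89162, 95301 and 77282 CPM in CO (log2 difference 0.01, 95% interval -0.19 to 0.21), the interval was narrow on both sides.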

How the data were processed

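Small RNA of 12 mouse livers was sequenced, 6 of them in this contrast. Libraries came from a TruSeq kit for small RNA after a miRNeasy extraction, per the labels' protocols. The submitters' processing notes name Bowtie 1.2.3. Not given in the sources used here are the genome build, miRNA reference, rule for reads matching several miRNAs, and filter on rows. Deposited values were CPM for 386 mature miRNA rows, 4 of which name several miRNAs and 6 of which repeat another row. Each column consisted of whole multiples of 1 step (within 0.001 reads), which gave the depth, 5.45 to 22.2 M reads over the 12 libraries. Columns summed to 0.866% to 1.17% above the CPM total of 1 M.

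log2(CPM + 1) of all 12 libraries was fitted with limma 3.58.1 in R 4.3.3, with 4 group means, a mean-variance trend and no covariate. Tests were two-sided, p-values were adjusted by Benjamini-Hochberg over all 386 rows (99 for arm ratios), and an adjusted p under 0.05 passed. The fit was also run on simulated reads. They had the same spread setting for every row and no shifted library, unlike the data, so that run does not show how the fit performs on these libraries. A log2 difference on this scale understates the change of rows at low CPM. Counting error only is covered by read numbers, since reads carried no molecular identifiers that the sources describe. Tables and plots used matplotlib 3.10.9, numpy 2.4.6 and pandas 2.3.3 under Python 3.11.15.

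The miRNAs named are those that passed, the smallest p up to 25, list members with an unadjusted p under 0.05 and the 4 most abundant of each list, the 5 most abundant, 6 arm ratios and 3 differences between the maternal diets. The part on abundant members was carried out in the text for only some lists. Members and lists were chosen with earlier results of these data known, so no pattern seen before counts as independent support. Families, positions and further single miRNAs (such as miR-30e-3p, miR-33-5p and miR-29a-5p) were chosen after their values were seen. Alternatives were the pseudocount, a filter on low values, scaling factors, the 6 libraries alone, no trend, sample weights, depth as a covariate, limma-voom, and each library left out.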

Additional observations from a re-analysis of the deposited data

How the results depend on the processing

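No paired analysis was possible because the labels name no litter, dam or batch, and the numbering of replicates only follows accession order. The sample titles of OC replicate 2 and OO replicate 3 differ only in their last letter. The labels do not say whether these mice were related. The edgeR and DESeq2 alternatives were not run, since the deposited values are CPM and not raw counts. limma-voom was run on the reads recovered from them. The count of miRNAs that passed in CO against CC, 3, was 1 with TMM factors and with the 6 libraries alone, 10 with log2 depth as a covariate, and 1 to 4 on leaving out 1 library each. That covariate also gave 1 passing difference between the maternal diets (miR-126-5p) and 1 passing arm ratio (miR-29a, -0.76) in place of 0, and no replicate of a group shares a depth, so its 10 calls rest on 1 slope over 12 libraries. miR-5099 passed in every setting run. The share of higher rows among those at an unadjusted p under 0.05 was 19% as deposited, 35.7% with median-of-ratios factors or without CO replicate 3, 49.2% with TMM factors and 32.5% with sample weights.

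Of 88 named miRNAs, those that changed sign in an alternative are given here, none had passed, and the cause was not tested. With median-of-ratios and TMM factors the log2 differences were 0.036 and 0.083 for miR-122-5p, 0.057 and 0.103 for miR-128-3p, 0.049 and 0.082 for miR-467d-5p and 0.010 and 0.056 for miR-93-5p, and with TMM factors 0.023 for miR-203-3p and 0.012 for miR-30a-5p. With sample weights they were -0.038 for let-7a-5p, -0.054 for let-7c-5p, 0.025 for miR-127-3p, 0.15 for miR-128-3p, -0.25 for miR-146a-5p and 0.060 for miR-93-5p. limma-voom gave -0.001 for miR-146a-5p, and the depth covariate -0.010 for the row of miR-199a-3p and miR-199b-3p. Leaving out 1 library each, the ranges were -0.010 to 0.26 for let-7c-5p, -0.18 to 0.048 for miR-122-5p, -0.30 to 0.013 for miR-127-3p, -0.20 to 0.13 for miR-128-3p, -0.021 to 0.75 for miR-144-3p, -0.097 to 0.42 for miR-144-5p, -0.26 to 0.21 for miR-146a-5p, -0.056 to 0.095 for miR-148a-3p, -0.10 to 0.10 for the row of miR-199a-3p and miR-199b-3p, -1.37 to 0.22 for miR-1a-3p, -0.026 to 0.54 for miR-223-3p, -0.061 to 0.048 for miR-25-3p, -0.043 to 0.24 for miR-378a-5p, -0.13 to 0.36 for miR-429-3p, -0.18 to 0.091 for miR-467d-5p and -0.17 to 0.052 for miR-93-5p.

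Depth limited the rarest rows most: in CO replicate 3, 185 of 386 rows rested on under 100 reads, against 91 to 151 in the other 5 libraries of the contrast.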

Other observations

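Hepatocyte-enriched miRNAs gave no row at an unadjusted p under 0.05, with 6 of 13 lower, 7 higher and a median of 0.01. miR-192-5p, the most abundant row, stood at 230695, 239389 and 237144 CPM in CC and at 255728, 239517 and 295048 CPM in CO, and miR-22-3p at 183413, 183221 and 182728 CPM in CC and at 173258, 171545 and 122504 CPM in CO. CO replicate 3 was the extreme in both. Without it the log2 differences went from 0.15 to 0.07 for miR-192-5p and from -0.25 to -0.09 for miR-22-3p (limma adjusted p = 0.341 and 0.318 with it).

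The 4 rows of the miR-467 and miR-669 cluster in an intron of Sfmbt2 summed to 6.19 to 8.03 CPM in CC and 4.81 to 6.61 in CO, with a median log2 difference of -0.19 and no p under 0.05. The 53 miRNAs with a number above 1000, which entered the catalogue of miRNAs late and are mostly rare, had 27 lower and 26 higher rows, a median of -0.00 and 1 that passed, miR-5099.

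miR-29a-5p, the rare arm of its hairpin, stood at 11.8, 7.36 and 11.1 CPM in CC and at 6.41, 6.68 and 0.918 CPM in CO. Its log2 difference was -1.19 (limma adjusted p = 0.211), and -0.53 without CO replicate 3.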
